A study of Drosophila melanogaster with 3 samples.

Results

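The unplaced and heterochromatin scaffolds of the fly genome, outside 1 left-out stretch, carried 356 of the 1355 Myc peaks listed for S2-DRSC cells. This was 26.3% of the list, a share not set against the length of these sequences. The members are all peaks on the unplaced collections U and Uextra and on the scaffolds of assembled heterochromatin (the Het scaffolds), chosen by position alone. A stretch of U resembling mitochondrial DNA was left out with its 7 peaks. Uextra held 281 members, U 46 and the Het scaffolds 29, of which 12 lay on 3LHet, 7 on 2RHet, 6 on 3RHet, 3 on YHet and 1 on 2LHet. S2-DRSC is a male Drosophila melanogaster line grown from embryos of a late stage. Its chromatin, fixed with 1.8% formaldehyde for 15 minutes, was sequenced as 2 ChIP libraries made with a rabbit polyclonal antibody to residues 46 to 507 of fly Myc and as 1 input library, with no treatment or mutant compared. The 3 libraries share 1 peak list, so no value below has a replicate, and the depth of each library is unknown.

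Myc is a transcription factor that pairs with Max, binds E-box sequences and drives growth and ribosome production in flies. Heterochromatin is the compact chromatin around centromeres and on the Y chromosome, rich in satellites and transposable elements and poor in genes. The Het scaffolds are pieces of it assigned to a chromosome. U and Uextra are different: each joins many sequenced pieces that could not be placed, in an order that is not a chromosome order, and Uextra gathers the smaller ones. A distance on U or Uextra may therefore cross a join between unrelated pieces. The joins are not marked in the list, and the bases under the peaks were not analysed here.

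Members scored higher than peaks of the 5 major arms (X and both arms of chromosomes 2 and 3). The score is the authors' own value from MACS, whose statistic is not named. On U it ran from 8.11 to 84.16 with a median of 19.3 (95% interval of the median 15.6 to 23.3, n = 46). On Uextra it ran from 7.09 to 122.55 with a median of 19.5 (17.3 to 21.4, n = 281). On the Het scaffolds it ran from 9.06 to 61.66 with a median of 15.5 (12.8 to 26.3, n = 29). The intervals of these 3 classes overlap each other and lie above that of the major arms, whose median was 11.9 (11.5 to 12.3, n = 979). Scores at or above the median of the whole list, 13.15, were held by 75.8% of members (exact 95% interval 71.1 to 80.2) and 39.8% of major-arm peaks (36.8 to 43.0), a difference of 36.0 percentage points (two-sided Fisher's exact test, adjusted p = 4.75e-31). Of single arms, 2R had the lowest such share, 30.9% (24.9 to 37.5), and 2L the highest, 51.4% (43.7 to 59.1). Chromosome 4, in neither group, had 5 peaks with a median score of 25.6, and 4 of them reached 13.15. How reads matching several places were handled is not given in the sources used here. The exact tests here count each peak as independent, although copies of 1 repeat may give several peaks.

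**Figure D1:**
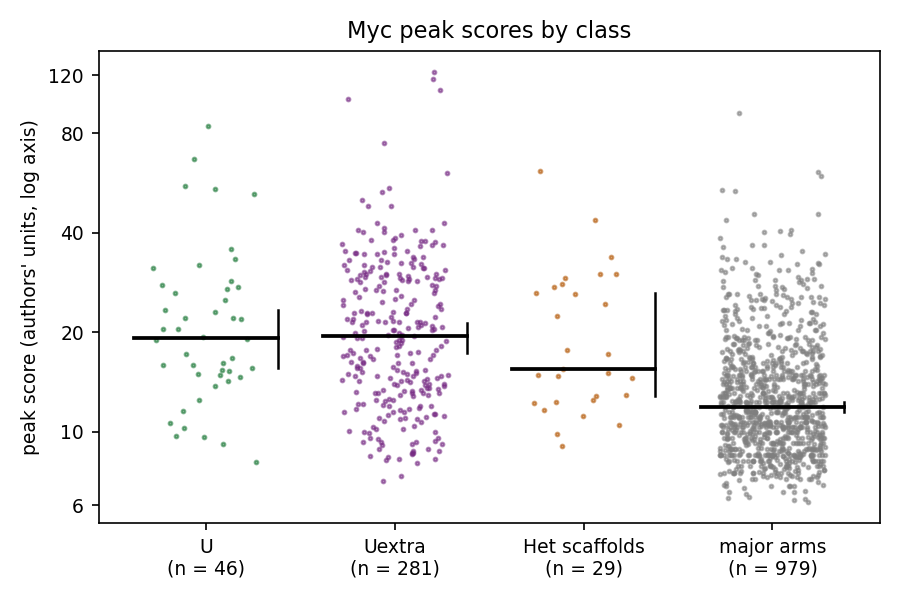
Each point is 1 peak, with its score on a log axis, for U, Uextra, the Het scaffolds and the major arms; horizontal bars are medians and the vertical bar at their right end is the 95% interval of the median. The medians of 19.3, 19.5 and 15.5 lie above that of the major arms, 11.9, while the ranges of all 4 classes overlap.

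The classes of scaffold were not told apart by score. At or above 13.15 lay 82.6% of peaks on U (exact interval 68.6 to 92.2) and 75.8% on Uextra (70.4 to 80.7; Fisher's exact test, adjusted p = 0.404). The share was 65.5% on the Het scaffolds (45.7 to 82.1), against 76.8% on U and Uextra together (71.8 to 81.2; Fisher's exact test, adjusted p = 0.308). Within the Het scaffolds, 8 of 12 peaks on 3LHet, 4 of 7 on 2RHet, 5 of 6 on 3RHet and 2 of 3 on YHet reached 13.15, and the single peak of 2LHet, at 12.8, did not.

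The scores of the Het peaks that reached 13.15 overlapped among the scaffolds, and were not compared by a test. On 2RHet they scored 26.23 (bases 686365 to 687015), 27.50, 30.12 (bases 2093023 to 2094179) and 26.25 (bases 2930842 to 2931318), and the other 3 scored 9.88 to 12.27. On 3LHet they scored 14.74 (bases 571566 to 571837), 15.03 (bases 667053 to 667329), 15.50, 22.37, 24.41 (bases 786093 to 786460), 28.03, 29.25 and 43.72. On 3RHet they scored 14.6, 17.26 (bases 66448 to 67190), 17.68, 30.06 and 61.66, above a lowest of 9.06 (bases 67552 to 67783). YHet had peaks of 14.89 and 33.79 above a lowest of 11.2 (bases 137121 to 137447).

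Members held 26.3% of the list and 61.0% of its 136 highest scores, 83 peaks. They held 58 of the highest 100 and 8 of the highest 20. The left-out stretch held 5 of those 20 and the major arms 1. The rest lay outside these classes and outside chromosome 4, whose highest score was 29.16. Scores of 30 or more were found for 21.1% of members (16.9 to 25.7) and 3.58% of major-arm peaks (2.50 to 4.94). At the low end, 8.99% of members (6.23 to 12.5) and 31.8% of major-arm peaks (28.9 to 34.8) scored under 10.

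Of the 20 highest members, 13 lay on Uextra, 5 on U, 1 on 3RHet and 1 on 3LHet. Those above a score of 100 were all on Uextra. They lay at bases 25090372 to 25090965 (score 122.55, 594 bp wide), 14899220 to 14899971 (117.15, 752 bp), 22426460 to 22427061 (108.56, 602 bp) and 2836766 to 2837268 (101.53, 503 bp). The highest peaks of U lay at bases 4252575 to 4253227 (84.16, 653 bp) and 4022435 to 4023119 (67.18, 685 bp). That of 3RHet was wider, at bases 1523746 to 1524918 (61.66, 1173 bp). The narrowest of the 20, on Uextra at bases 28535916 to 28536122, was 207 bp wide with a score of 54.84. Among peaks scoring 30 or more, 0 of 35 on the major arms and 3 of 61 on Uextra were under 250 bp wide. With so few high peaks on the arms, this difference was not tested. The lowest member was a Uextra peak at bases 10446215 to 10446464 (7.09), and the lowest of U lay at bases 7379901 to 7380137 (8.11).

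Among peaks scoring 13.15 or more, members were narrower than major-arm peaks, a difference that rested on Uextra. Over all scores the median widths were close, 373 bp for members (358 to 405) and 353 bp for the major arms (335 to 363), and the share at or above the list median of 359 bp was 54.5% against 47.8% (Fisher's exact test, adjusted p = 0.0828). Width rose with score in both, with Spearman's rho of 0.619 over the 356 members and 0.616 over the 979 major-arm peaks, given as descriptions. Among peaks scoring 13.15 or more the order of the shares turned. There 66.3% of 270 members and 76.4% of 390 major-arm peaks were 359 bp or wider, a difference of -10.1 points (Fisher's exact test, adjusted p = 0.0113). By class the shares were 60.5% of 38 on U, 65.7% of 213 on Uextra and 84.2% of 19 on the Het scaffolds. U and Uextra thus lay below the major arms and the Het scaffolds above them. Without Uextra the share was 68.4% of 57 members, a difference of -7.99 points that was not called (Fisher's exact test, adjusted p = 0.328). Widths above the 90th percentile of the list, 705 bp, were also less frequent among members, at 4.78% against 11.0% (Fisher's exact test, adjusted p = 0.00121).

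The list was divided at its quartiles, scores of 9.99, 13.15 and 19.3, to follow this further. In the lowest band members had a median width of 245.5 bp (232 to 283) and the major arms 260 bp (249 to 269). In the second band the medians were 287 bp (257 to 302) and 331 bp (313 to 353). In the third they were 306.5 bp (272 to 328) and 438.5 bp (416 to 462). In the highest band, which held 178 members and 142 major-arm peaks, they were 465.5 bp (441 to 484) and 629 bp (551 to 742). The intervals are apart in the upper 3 bands and overlap in the lowest. Uextra supplied 143 of the 178 members of the highest band. The Het scaffolds, with 2, 8, 7 and 12 peaks in the 4 bands, had medians of 349, 312.5, 449 and 633 bp, below the major arms in the second band only.

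Among the members, very wide peaks were rarest on Uextra and most frequent on the Het scaffolds. In the highest band the median width was 453 bp on Uextra (436 to 475, n = 143), 515 bp on U (410 to 685, n = 23) and 633 bp on the Het scaffolds (368 to 1157, n = 12). No peak on Uextra was 1000 bp wide or more (0 of 281, which allows up to 1.3%), and the widest, at bases 439255 to 440084, measured 830 bp with a score of 74.87. On U 2 of 46 peaks, 4.35% (0.531 to 14.8), and on the Het scaffolds 3 of 29, 10.3% (2.19 to 27.4), reached 1000 bp. Both intervals include the share of the major arms, 33 of 979 or 3.37% (2.33 to 4.70). The widest of U lay at bases 8294105 to 8295322 (1218 bp, score 33.47) and the widest of the Het scaffolds on 2RHet at bases 2089125 to 2090310 (1186 bp, score 27.50). Widths above 705 bp were found for 10.9% of peaks on U and 2.14% on Uextra (Fisher's exact test, adjusted p = 0.0257), and for 20.7% on the Het scaffolds and 3.36% on U and Uextra together (adjusted p = 0.00274). At the threshold of 359 bp neither comparison passed Fisher's exact test (adjusted p = 0.874 and 0.370). The lengths of the pieces joined in Uextra were not used here.

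**Figure D2:**
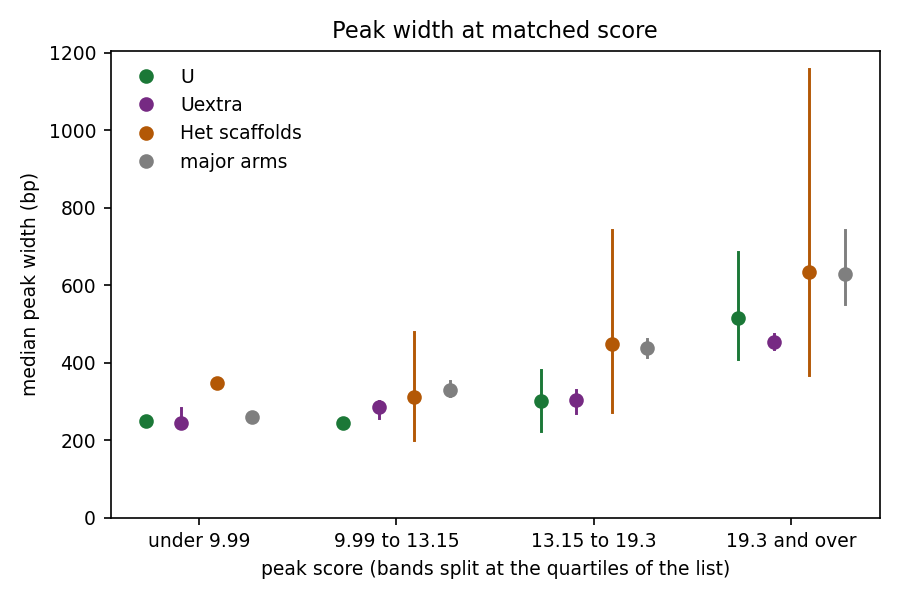
Points are median peak widths in bp for U, Uextra, the Het scaffolds and the major arms in 4 bands of score, and vertical lines are 95% intervals of the median, drawn where a band holds at least 6 peaks of the class. In the highest band the interval of Uextra, 436 to 475 bp, lies below that of the major arms, 551 to 742 bp, and that of the Het scaffolds, 368 to 1157 bp, spans both.

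Peaks with a close neighbour were less frequent among members than on the major arms. A peak was counted as close to another when at most 1000 bp lay between them. This held for 34 of 356 members, 9.55% (6.70 to 13.1), and for 24.9% of major-arm peaks (22.2 to 27.8), a difference of -15.4 points (Fisher's exact test, adjusted p = 6.15e-10). By class it held for 7.12% of peaks on Uextra (4.40 to 10.8), 10.9% on U (3.62 to 23.6) and 31.0% on the Het scaffolds (15.3 to 50.8). Single arms ran from 16.6% on 3L (11.6 to 22.7) to 33.5% on 2L (26.5 to 41.1). The Het scaffolds differed from U and Uextra together, at 7.65% (Fisher's exact test, adjusted p = 0.00176), and U did not pass against Uextra (adjusted p = 0.404). Close peaks come at least 2 at a time, however, and are not independent. With each group of close peaks as 1 unit, 4.73% of 338 units of the members and 13.2% of 847 units of the major arms held several peaks (Fisher's exact test, adjusted p = 2.81e-05). On that count the Het scaffolds, at 16.7% of 24 units, were no longer called against U and Uextra, at 3.82% of 314 (Fisher's exact test, adjusted p = 0.0602). Without Uextra, 18.7% of 75 members had a close neighbour and the difference from the major arms was no longer called (Fisher's exact test, adjusted p = 0.398).

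The 34 peaks formed 16 groups, 14 of them pairs. The median gap within them was 114 bp, where close neighbours on the major arms had 231.5 bp. The highest peak of a group scored a median of 2.02 times the lowest, and 1.41 times in such groups of the major arms. On U the longest group held 3 peaks over 2150 bp, at bases 7542948 to 7543196 (score 17.19), 7543771 to 7544344 (19.07) and 7544409 to 7545097 (54.48). On 3LHet the longest also held 3, over 1738 bp, at bases 854631 to 855245 (28.03), 855368 to 855726 (29.25) and 856168 to 856368 (11.67). The highest peak of one group was thus its last, and of the other its middle peak. No group on Uextra held more than 2. The pair with the highest score joined a peak of 37.79 at bases 2836244 to 2836693 to the peak of 101.53 named above, 72 bp away, and the most unequal pair joined a peak of 31.63 at bases 11315341 to 11316018 to one of 9.50 at bases 11316521 to 11316855. On YHet 2 of the 3 peaks were such a pair, at bases 71890 to 72247 (14.89) and 72354 to 73277 (33.79).

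A second kind of pair, found on the major arms too, recurred on U and the Het scaffolds, with midpoints 4000 to 8000 bp apart. This range was set after the distances had been seen, so the shares are descriptions with no test. Of the 29 peaks on the Het scaffolds 12 belonged to such a pair, 41.4% (23.5 to 61.1), as did 12 of 46 on U, 26.1% (14.3 to 41.1), and 22 of 281 on Uextra, 7.83% (4.97 to 11.6). On the major arms the share was 19.7% (17.3 to 22.3), or 18.6% without the run of 39 peaks on 2L. Single arms ranged from 9.01% on X (4.41 to 15.9) to 33.5% on 2L (26.5 to 41.1), so that 2L lay above U and within the interval of the Het scaffolds. On U and the Het scaffolds no neighbours lay 1000 to 3000 bp apart, and 7 of 68 neighbour distances fell between 6000 and 7000 bp. On the major arms the same 1000 bp held 39 of 974 distances, more than either neighbouring 1000 bp, with 21 and 16.

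**Figure D3:**
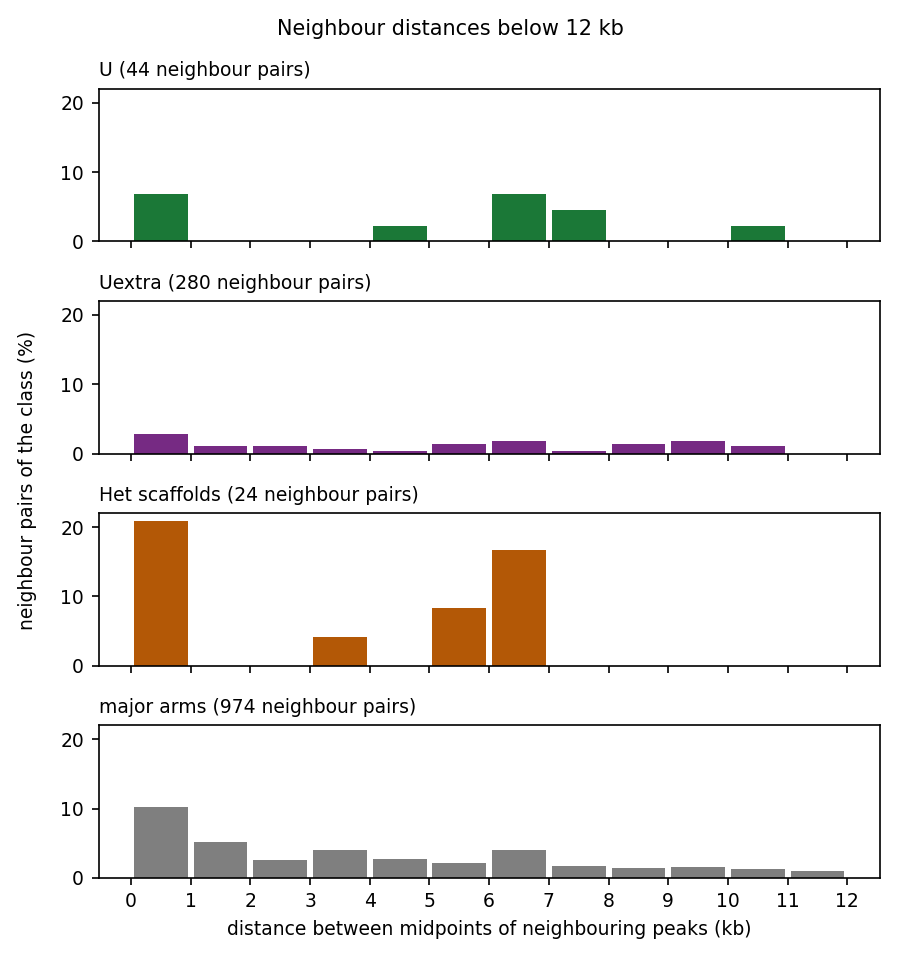
Bars give the share, in percent, of neighbour pairs of each class whose midpoints lie at each distance in kb, in steps of 1 kb up to 12 kb; longer distances count in the total and are not drawn. The Het scaffolds hold 20.8% of their pairs in the first step and 16.7% between 6 and 7 kb, with few in between, and Uextra reaches no more than 2.86% in any step.

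Few of these distances recurred among the members themselves. Of the 23 pairs of members, 4 had another pair of members within 10 bp of their distance, 9 had only pairs of the major arms that near and 10 had none. The same count was not made for the pairs of the major arms, so these numbers have no reference. On 3LHet peaks at bases 67224 to 67630 (score 22.37) and 74026 to 74558 (15.50) had midpoints 6865 bp apart. On 3RHet peaks at bases 845731 to 846179 (17.68) and 852641 to 853001 (30.06) were 6866 bp apart. On 2RHet peaks at bases 361821 to 362062 (12.27) and 368708 to 369005 (10.47) were 6915 bp apart. The distances of these 3 pairs, from 3 scaffolds, thus ran from 6865 to 6915 bp. Neighbours 6800 to 7000 bp apart also occurred 25 times on the major arms, 9 of them on 2L and 9 on 3R. On U and Uextra no neighbours fell in that window. The other match within 10 bp joined a pair of U at 6709.5 bp and a pair of Uextra at 6719.5 bp. What lies between the peaks was not analysed here.

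The 2 peaks of a spaced pair were often unequal on U and the Het scaffolds. In 7 of their 12 pairs one score was more than 1.5 times the other, and in all 7 the higher peak was the one at the larger coordinate. The most unequal lay on 3RHet, where a peak of 14.6 at bases 1517670 to 1518292 preceded the peak of 61.66. On 3LHet a peak of 12.28 at bases 1279622 to 1280083 preceded that scaffold's highest, 43.72, at bases 1285242 to 1286069. On U a peak of 23.32 at bases 4015853 to 4016282 preceded the peak of 67.18. Uextra had 4 such unequal pairs among 11, of which 3 had the higher peak first. Taking U and the Het scaffolds together is not 1 of the 3 contrasts. Over all members, 8 unequal pairs had the higher peak second and 3 had it first, and the direction was not tested. On the major arms 35 of 102 pairs were as unequal, 17 with the higher peak first and 18 with it second.

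**Figure D4:**
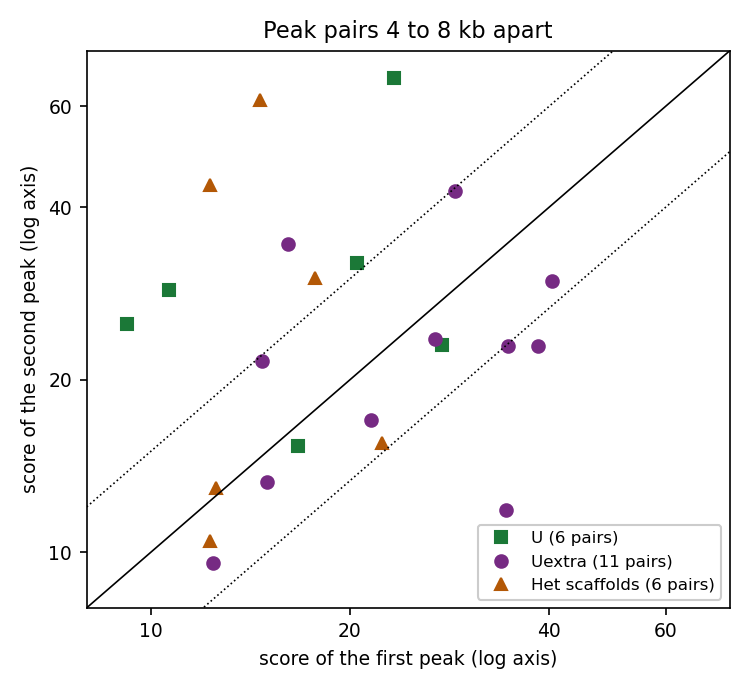
Each point is a pair of neighbouring members with midpoints 4 to 8 kb apart, with the score of the peak at the smaller coordinate on the horizontal and that of the other on the vertical axis, both logarithmic. The solid line marks equal scores and the dotted lines a ratio of 1.5; 7 of the 12 pairs of U and the Het scaffolds lie above the upper dotted line and none below the lower, while 3 of the 11 pairs of Uextra lie below.

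Along the collections the members were unevenly spread. The median distance between neighbouring midpoints was 64208 bp on Uextra (52360 to 74940), 81527 bp on U (38412 to 157022) and 24830 bp on the Het scaffolds (5781 to 317834). On the major arms it was 26421.5 bp (22321.5 to 30482), below the intervals of U and Uextra. The shares of close and spaced pairs above were not adjusted for this difference. On Uextra the number of peaks in 1 Mb bins ran from 2 to 22 with a median of 8.5 over 28 bins. The stretch from 13 to 17 Mb, chosen after its counts were seen, held 76 peaks, 19 per Mb, with a median score of 17.5. The remainder held 9.31 per Mb before it (median score 19.3) and 7 per Mb after it (22.6). On U the first Mb held no member, and the bin from 9 to 10 Mb held 13 with a median score of 15.6, the most of its 10 full bins. Some bins with few peaks had lower medians, such as that of U from 3 to 4 Mb (3 peaks, 10.7). The members next to the left-out stretch of U scored 13.78 before it, 704378 bp away, and 35.7 after it, 327313 bp away, where the outermost peaks of the stretch itself scored 132.94 and 101.87.

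Members shared their score values with other peaks less often. A value held by at least 1 other peak of the list was found for 127 of 356 members, 35.7% (30.7 to 40.9), and for 64.5% of major-arm peaks (61.4 to 67.5; Fisher's exact test, adjusted p = 5.11e-20). Values held by 5 or more peaks accounted for 1.97% of members and 34.2% of major-arm peaks (Fisher's exact test, adjusted p = 4.20e-42). High scores are shared less in both. At scores from 10 to 20 the shares were 46.5% (n = 155) and 69.5% (n = 541), and under 10 they were 68.8% (n = 32) and 70.4% (n = 311). At 20 and over, the band with the most members, they were 19.5% (13.8 to 26.3, n = 169) and 28.3% (20.7 to 37.0, n = 127), with overlapping intervals. By class the shares were 38.4% on Uextra, 30.4% on U and 17.2% on the Het scaffolds, where neither U against Uextra (Fisher's exact test, adjusted p = 0.404) nor the Het scaffolds against both (adjusted p = 0.0828) passed. Both the score and the width of another peak were held by 0 of 356 members and 28 of 979 major-arm peaks. These counts were neither tested nor matched for score.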

How the data were processed

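The submitters' processing notes name CASAVA (1.7.0.2, 1.7.0.3), BWA, MACS2 and the genome build BDGP5, without the role of each. The deposited list gives 1 score per peak, with neither statistic nor log base named, on FlyBase release 5 coordinates per the file headers. How the libraries were combined, and their depth, is not given in the sources used here. Members, lists and measures were chosen with earlier results of these data known. With Python 3.11.15 and scipy 1.17.1, 4 shares of peaks (score and width at or above the list median, a gap of at most 1000 bp to another peak, a repeated score value) were compared in 3 contrasts by two-sided Fisher's exact tests, Benjamini-Hochberg adjusted over all 12 with a threshold of 0.05. Tests at other thresholds, on subsets or on groups of peaks are alternatives to these 12. Their adjusted p does not allow for the choice among the 56 alternatives. Shares have exact (Clopper-Pearson) and medians order-statistic 95% intervals, for counting error only. Distances join neighbouring midpoints. The procedures were tested on simulated data. Named peaks are the 20 highest members, the extremes of each scaffold, the Het peaks at or above the list median, the longest groups and the peaks beside the left-out stretch. Peaks in spaced pairs, the remaining close pairs were chosen after their values were seen. Not every peak that the rule takes is printed.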

Additional observations from a re-analysis of the deposited data

How the results depend on the processing

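Of 56 alternatives to 15 results, 8 of them (without the longest run on 2L, groups of close peaks as units, width at high scores without Uextra) chosen after seeing the data, 42 left both direction and call as they were, 5 gained a call, 2 lost it and 7 changed direction. Values are differences in percentage points with the adjusted p of Fisher's exact test. Width against the major arms (6.69) became -10.1 among peaks at or above the median score (exact p = 0.0113), -7.99 among those without Uextra (exact p = 0.328) and -6.26 at the 90th percentile of width (exact p = 0.00121), 7.29 with the left-out stretch (exact p = 0.0468) and 7.47 without the 2L run (exact p = 0.0432). Width on U against Uextra (-1.56) became 2.87 with the stretch (exact p = 0.765) and 8.73 at the 90th percentile (exact p = 0.0257), and the Het scaffolds gained a call there (17.3, exact p = 0.00274). Score on U against Uextra (6.81) became -4.99 at the 90th percentile (exact p = 0.629), and their median score difference turned from -0.21 to 0.81 score units with geometric means. Close neighbours against the arms lost their call without Uextra (-6.26, exact p = 0.398), and U against Uextra gained one with the stretch (15.5, exact p = 0.00342), whose 7 peaks are all close neighbours. The Het scaffolds lost theirs with groups as units (12.8, exact p = 0.0602). Repeated scores on the Het scaffolds gained one with close peaks merged (-24.8, exact p = 0.0262). The causes were not tested. No paired analysis was possible because both ChIP libraries share 1 peak list, and no library could be left out. Depth and replicate spread are unknown.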
